A study of Sus scrofa with 3 samples.

Results

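Interferon-stimulated genes were followed in visceral adipose tissue of male Wuzhishan miniature pigs, a small Chinese breed. The set was 10 genes chosen by name: MX1, MX2, ISG15, IFIT1, IFIT2, IFIT3, OAS1, OAS2, RSAD2 and IRF7. All 10 were found among the 22826 mRNA genes of the deposited values, 9 under these symbols and RSAD2 under its synonym IRG6. Of these, 9 were above 0 in every library and ISG15 was listed at 0 in every library. All pigs ate a diet rich in fat and cholesterol (HFC) and were several months old when obtained. Intact males (IM) kept their testes after a sham incision, and castrated males (CM) received no testosterone. Castrated males with testosterone replacement (CMT) received intramuscular testosterone propionate. Oil was the carrier of testosterone, and the paper does not describe oil injections for CM. CMT may therefore have differed from CM by the oil and the injections as well as by the hormone. The tissue was fat from behind the peritoneum, and its RNA was pooled in equal amounts over 4 to 6 pigs per group according to the sample labels. Each group was therefore 1 library, no difference between groups had a replicate check, and no p-value is given.

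Type I interferons are secreted proteins that warn neighbouring cells of virus. They bind the receptor IFNAR1/IFNAR2, whose kinases JAK1 and TYK2 phosphorylate STAT2. It joins IRF9 in a complex that binds interferon-stimulated response elements and switches on interferon-stimulated genes, many of which encode antiviral proteins. Such genes have a basal level in many tissues, and in adipose tissue they are made by adipocytes as well as by stromal and immune cells.

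Recovered whole reads came to between 15106608 and 16611931 per library over all genes and to between 13449107 and 14844063 on mRNA genes. The levels are given in UQRPKM, reads per kilobase of gene scaled by each library's upper quartile, so that they can be compared between genes and between libraries. The 95% intervals printed below come from the reads of each gene and cover counting error only, not the differences between pigs. Adipocyte markers were high in all libraries, with adiponectin (ADIPOQ) at 74928, 69193 and 63873 UQRPKM in IM, CM and CMT. Skeletal muscle markers stood apart in CMT, where their summed level was 6130 UQRPKM against 82.3 in IM and 68.3 in CM. Liver markers stood apart in CM, where their summed level was 7009 UQRPKM against 17.6 in IM and 21.0 in CMT. The calprotectin genes S100A8 and S100A9 and their relative S100A12 were also high in CM. The neutrophil list that holds them summed to 504, 4883 and 964 UQRPKM in IM, CM and CMT, almost all of it from these S100 genes. The other genes of that list did not follow, with CXCR2 at 5.08, 4.69 and 4.35 UQRPKM and CSF3R listed at 0. In pooled bulk tissue, fewer cells of a type and less RNA per cell cannot be told apart.

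The 2 OAS genes encode synthetases that make the 2'-5' oligoadenylates which activate the antiviral ribonuclease RNase L. OAS1 had the highest level of the set, at 2836, 1434 and 1502 UQRPKM in IM, CM and CMT. IM stood alone, while the counting intervals of CM (1365 to 1506) and CMT (1432 to 1574) overlapped. For OAS1 the log2 ratio was -0.98 (95% interval from -1.07 to -0.90) in CM versus IM, 0.07 (-0.03 to 0.16) in CMT versus CM and -0.92 (-1.0 to -0.83) in CMT versus IM. OAS2 was at 635, 459 and 332 UQRPKM in the same order of libraries. Its level was thus graded from IM through CM to CMT, with no overlap of the intervals. The log2 ratio of OAS2 was -0.47 (-0.55 to -0.38) in CM versus IM, -0.47 (-0.57 to -0.37) in CMT versus CM and -0.94 (-1.03 to -0.84) in CMT versus IM.

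MX1 and MX2 encode dynamin-like GTPases that trap viral nucleocapsids. MX1 was at 412, 326 and 246 UQRPKM in IM, CM and CMT. MX2 was at 466, 311 and 241 UQRPKM. Both genes had the order IM above CM above CMT, and for both the counting intervals of the 3 libraries did not overlap. For MX1 the log2 ratio was -0.34 (-0.44 to -0.23) in CM versus IM, -0.41 (-0.53 to -0.28) in CMT versus CM and -0.74 (-0.86 to -0.63) in CMT versus IM. The log2 ratio of MX2 was -0.58 (-0.70 to -0.46) in CM versus IM, -0.37 (-0.51 to -0.23) in CMT versus CM and -0.95 (-1.08 to -0.82) in CMT versus IM.

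RSAD2 encodes viperin, a radical SAM enzyme that makes a chain-terminating nucleotide. RSAD2 was at 331, 269 and 159 UQRPKM in IM, CM and CMT, and its lowest library, CMT, lay well below the other two. RSAD2 had a log2 ratio of -0.30 (-0.41 to -0.18) in CM versus IM, -0.76 (-0.90 to -0.62) in CMT versus CM and -1.06 (-1.19 to -0.92) in CMT versus IM, the furthest from 0 of the 9 genes in the last comparison. IRF7, the transcription factor that drives transcription of interferon genes themselves, was at 113, 121 and 71.5 UQRPKM. Its intervals in IM (101 to 127) and CM (108 to 136) overlapped, and CMT (61.5 to 82.8) lay below both. For IRF7 the log2 ratio was 0.09 (-0.14 to 0.33) in CM versus IM, -0.76 (-1.03 to -0.49) in CMT versus CM and -0.67 (-0.94 to -0.39) in CMT versus IM. IRF7 had the fewest reads of the 9 genes, 293, 298 and 181, and therefore the widest intervals.

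The IFIT genes encode proteins that bind foreign RNA and hold back its translation. Their levels differed little between the libraries. IFIT1 was at 349, 295 and 301 UQRPKM in IM, CM and CMT, so that IM was slightly above both. IFIT2 was at 184, 169 and 169 UQRPKM and IFIT3 at 251, 244 and 222 UQRPKM, with overlapping intervals in all 3 libraries for each gene. In CMT versus IM the log2 ratio was -0.21 (-0.34 to -0.08) for IFIT1, -0.12 (-0.28 to 0.05) for IFIT2 and -0.18 (-0.36 to just below 0) for IFIT3. In CMT versus CM the log2 ratios of the IFIT genes lay between -0.14 and 0.03, and each interval included 0. ISG15 encodes a ubiquitin-like protein that is attached to other proteins. It was listed at 0, as were 6 of the 66 genes with ribosomal protein symbols, which every cell uses, so nothing is read from that value.

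**Figure D1:**
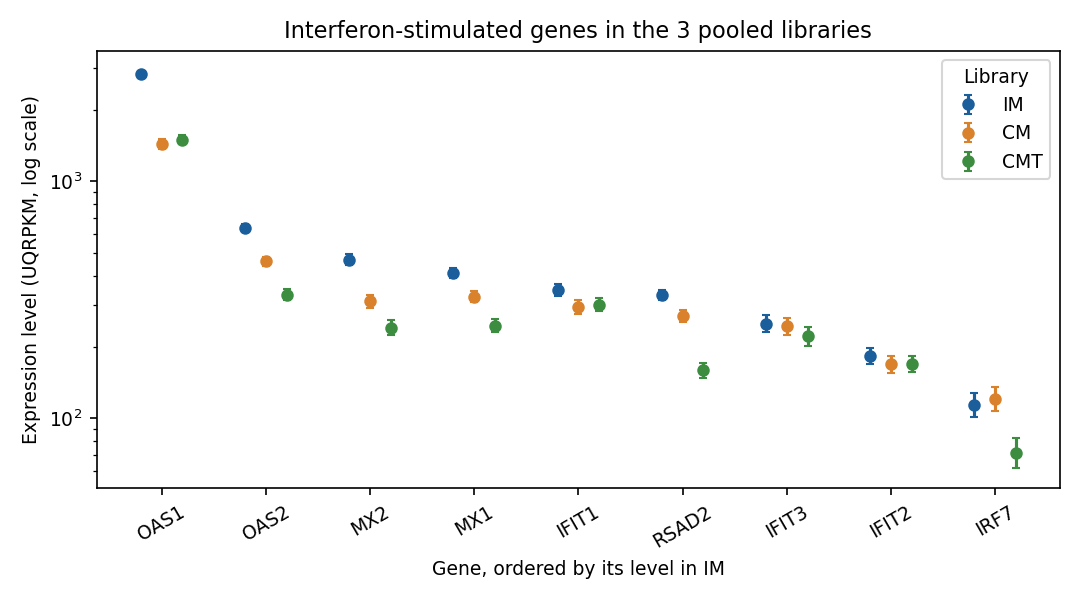
Level of each interferon-stimulated gene above 0 in UQRPKM on a log scale, in the 1 pooled library of each group (IM blue, CM orange, CMT green). Bars are 95% counting intervals. OAS1 was highest, from 1434 to 2836 UQRPKM, and IRF7 lowest, from 71.5 to 121 UQRPKM, and the points of the IFIT genes lie close together.

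In IM the levels fell in the order OAS1, OAS2, MX2, MX1, IFIT1, RSAD2, IFIT3, IFIT2 and IRF7. The intervals of IFIT1 (328 to 370 UQRPKM) and RSAD2 (314 to 349 UQRPKM) overlapped in IM, so their order was not resolved, whereas the other neighbours in this order did not overlap. In CMT, RSAD2 at 159 UQRPKM stood next to IFIT2 at 169 UQRPKM with overlapping intervals, and IFIT1 at 301 UQRPKM stood above both MX genes. The 9 genes summed to 5577, 3629 and 3243 UQRPKM in IM, CM and CMT, with 13079, 8949 and 7619 reads. OAS1 weighed heavily in these sums. With OAS1, the log2 ratio of the sums was -0.62 for CM over IM, -0.16 for CMT over CM and -0.78 for CMT over IM. Without OAS1 these ratios were -0.32, -0.33 and -0.65.

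A gene was called higher or lower when its levels differed by 1.5-fold or more and neither was under 1 UQRPKM, a rule of size and no test. In CM versus IM, the question was what castration alone was accompanied by. Of the 9 genes, 0 were called higher, where 8.38% of all mRNA genes were. Of the 9 genes, 1 (11.1%) was called lower, where 10.4% of all mRNA genes were, a share near that background. The called gene was OAS1. MX2 fell just short of 1.5-fold. By counting intervals, 6 of the 9 genes lay wholly below 0 in CM versus IM, where 35% of the 8541 mRNA genes with at least 100 reads in each library did. The median log2 ratio of the 9 genes was -0.30, beside -0.06 over the 15128 mRNA genes above 0 in both libraries. The CM library in this comparison was the one with liver and S100 transcripts, and their part in the values was not tested.

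In CMT versus CM, the question was what testosterone replacement was accompanied by in castrated pigs. Of the 9 genes, 0 were called higher against 9.53% of all mRNA genes. RSAD2 and IRF7 were called lower, which was 2 of 9 (22.2%) against 9.97% of all mRNA genes. By counting intervals, 5 of the 9 genes lay wholly below 0 (MX1, MX2, OAS2, RSAD2 and IRF7), where 26.7% of the mRNA genes with at least 100 reads in each library did. The median log2 ratio was -0.37, beside -0.02 over 15094 mRNA genes. OAS1, IFIT1 and IFIT2 were above 0 in this comparison, between 0.01 and 0.07, and each interval included 0.

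In CMT versus IM, castrated pigs with the hormone replaced were set against pigs with their own testes. Of the 9 genes, 0 were called higher against 8.81% of all mRNA genes. MX1, MX2, OAS1, OAS2, RSAD2 and IRF7 were called lower, 6 of 9 (66.7%) against 11.9% of all mRNA genes. By counting intervals, 8 of the 9 genes lay wholly below 0, all but IFIT2, where 39.7% of the mRNA genes with at least 100 reads in each library did. Scaling by total mRNA reads adds 0.11 to these ratios. The upper limits of IFIT1 (-0.08) and IFIT3 (just below 0) were closer to 0 than that, so neither interval would then lie wholly below 0. The median log2 ratio was -0.74, beside -0.07 over 15158 mRNA genes. RSAD2 was 2.08-fold lower in CMT than in IM, while the other called genes were between 1.59-fold and 1.93-fold lower. The call of IRF7 was lost when libraries were scaled by total mRNA reads or to a median log2 ratio of 0, and the other 5 calls remained.

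The 3 comparisons share libraries, so they are not independent of each other. Scaling by total mRNA reads moved all log2 ratios in CMT versus IM up by 0.11, and relative to it the median of the 9 genes was -0.63. Over all mRNA genes, the share of called genes that were higher in CMT versus IM moved from 42.4% to 56.8% with that scaling and to 54.1% with scaling to the median. The order IM above CM above CMT held for 5 of the 9 genes (MX1, MX2, IFIT3, OAS2 and RSAD2), where 27% of the mRNA genes with at least 100 reads in each library had it. With either other scaling it held for 4 of the 9 genes, since IFIT3 in CM versus IM lay at -0.04 and crossed 0. IM was the highest library for 8 of the 9 genes, all but IRF7, beside 47.5% of those mRNA genes. CMT was the lowest library for 6 of the 9 genes, beside 42.1%.

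**Figure D2:**
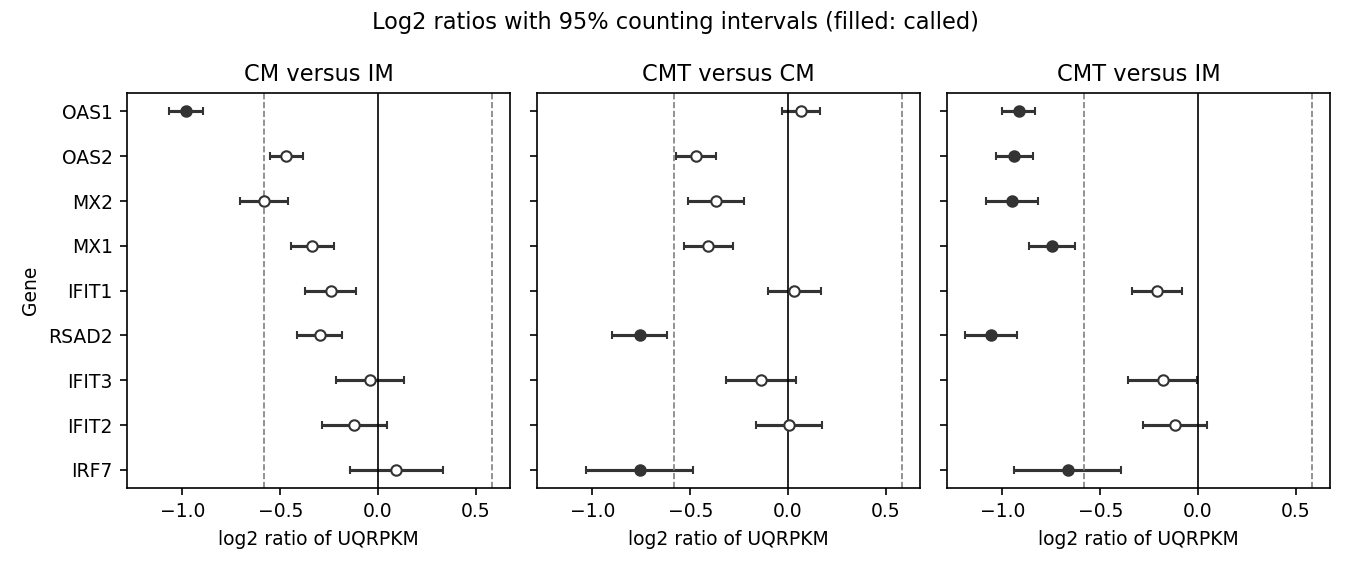
Log2 ratio of UQRPKM for each interferon-stimulated gene in the 3 comparisons, with 95% counting intervals and 1 library per group. Filled points were called at a fold of 1.5 (dashed lines) and open points were not. OAS1 alone is filled in CM versus IM, RSAD2 and IRF7 in CMT versus CM, and 6 genes in CMT versus IM.

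OAS1 and OAS2 differed in where along the 3 libraries their level dropped. The ratio of a pair of related genes within a library is free of any scaling between libraries, and 6 such pairs were compared with unadjusted 95% counting intervals, chosen after the values were seen. The level of OAS1 was 4.46, 3.12 and 4.53 times that of OAS2 in IM, CM and CMT. The difference of OAS1 minus OAS2 in log2 ratio was -0.52 (-0.64 to -0.39) in CM versus IM. It was 0.54 (0.39 to 0.68) in CMT versus CM and 0.02 (-0.11 to 0.15) in CMT versus IM. The pair thus stood in about the same proportion in IM and CMT, and OAS1 was low relative to OAS2 in CM.

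The level of MX2 was 1.13, 0.954 and 0.981 times that of MX1 in IM, CM and CMT. The difference of MX1 minus MX2 in log2 ratio was 0.25 (0.08 to 0.41) in CM versus IM, -0.04 (-0.23 to 0.15) in CMT versus CM and 0.21 (0.03 to 0.38) in CMT versus IM. MX2 was thus low relative to MX1 in both castrated groups. For the 3 pairs of IFIT genes, every interval in every comparison included 0. The widest reached from -0.10 to 0.39 (IFIT2 minus IFIT3 in CMT versus CM). In the RefSeq gene order MX1 and MX2 are neighbours, as are OAS1 and OAS2 and the 3 IFIT genes, and the IFITM genes are close in sequence. How reads that fit more than 1 of them were counted is not given in the sources used here, so the split between such relatives is uncertain.

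RSAD2 neighbours CMPK2, a mitochondrial nucleotide kinase gene that is also induced by interferon. CMPK2 was at 205, 168 and 101 UQRPKM in IM, CM and CMT and was called lower in CMT than in either other library, as RSAD2 was. The level of RSAD2 was 1.61, 1.60 and 1.58 times that of CMPK2 in the 3 libraries. The difference of RSAD2 minus CMPK2 in log2 ratio was -0.01 (-0.22 to 0.20) in CM versus IM, -0.02 (-0.28 to 0.24) in CMT versus CM and -0.03 (-0.28 to 0.21) in CMT versus IM.

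Most other interferon-stimulated genes also had lower values in CMT than in IM. From a list of 48, 41 were found in the deposited values and 38 were above 0 in every library. HERC6, SAMHD1 and PLSCR1 were listed at 0. In CMT versus IM 12 of 36 (33.3%) were called lower and 0 higher, beside the 11.9% and 8.81% of all mRNA genes given above. The median log2 ratio was -0.43, and 35 of 38 genes lay below 0, as did 62.6% of the mRNA genes with at least 100 reads in each library. With scaling by total reads 8, with scaling to the median 9 and at 2-fold 3 were called lower. In CMT versus CM 5 of 36 (13.9%) were called lower, beside 9.97% of all mRNA genes, and 1 higher, with a median of -0.29. In CM versus IM 4 of 37 (10.8%) were called lower and 0 higher, close to the share of all mRNA genes, with a median of -0.26. With either other scaling 2 were called lower and 1 higher.

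Genes for small membrane proteins had unlike patterns. IFI27, found as ISG12(A), which encodes a small mitochondrial membrane protein, was at 2508, 2026 and 1298 UQRPKM in IM, CM and CMT. IFITM1, whose protein blocks viral entry at the cell membrane, was at 1274, 1007 and 709 UQRPKM. Both were called lower in CMT versus IM, and IFI27 also in CMT versus CM. IFITM3, a relative of IFITM1 that acts in endosomes, was at 864, 559 and 849 UQRPKM. It was lowest in CM and was called higher in CMT versus CM, whereas its call as lower in CM versus IM was lost with either other scaling.

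The enzymes that attach ISG15 to its targets were above 0 although ISG15 itself was listed at 0. UBA7, the activating enzyme, was at 189, 130 and 94.8 UQRPKM in IM, CM and CMT. UBE2L6, the conjugating enzyme, was at 1049, 808 and 695 UQRPKM. Both were called lower in CMT versus IM, with log2 ratios of -0.99 and -0.59, and the call of UBE2L6 was lost with either other scaling. USP18, which removes ISG15 and restrains the type I interferon receptor, was at 586, 428 and 417 UQRPKM and was not called in any comparison. HERC5, the ligase, was at 77.9, 85.4 and 60.5 UQRPKM and was not called either.

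Several nuclear and cytoplasmic effectors had lower levels in CMT. PML, the organiser of nuclear bodies, was at 166, 136 and 104 UQRPKM and was called lower in CMT versus IM, a call lost with scaling by total reads. PARP12, an ADP-ribosyltransferase, was at 47.7, 46.2 and 18.3 UQRPKM and was called lower in CMT than in either other library. DDX60, a helicase, was at 28.1, 22.8 and 15.0 UQRPKM with calls in the same comparisons as PARP12. SAMD9 was at 43.3, 51.0 and 30.7 UQRPKM and was called lower in CMT versus CM. IFI44 was at 212, 180 and 134 UQRPKM and was called lower in CMT versus IM. ZNFX1, an RNA helicase of mitochondria, was at 73.9, 48.7 and 45.2 UQRPKM and was called lower in both castrated groups versus IM. EPSTI1 was at 181, 126 and 121 UQRPKM and was called lower in CMT versus IM. With either other scaling the calls of IFI44 and EPSTI1 in CMT versus IM, of ZNFX1 in CM versus IM and of DDX60 in CMT versus CM were lost.

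Genes with few reads need more caution. ISG20, an exonuclease gene, was at 38.3, 15.0 and 11.8 UQRPKM with 43, 16 and 13 reads, and was called lower in both castrated groups versus IM. OASL, a relative of the OAS genes without synthetase activity in humans, was at 8.65, 5.34 and 0.519 UQRPKM with 17, 10 and 1 reads. It was called lower in CM versus IM, with an interval that included 0 (-1.99 to 0.51), and its CMT level was below the 1 UQRPKM that a call required. A few genes of the list had another pattern. The chemokine gene CXCL10 was at 181, 269 and 188 UQRPKM and the tetherin gene BST2 at 1144, 1415 and 983 UQRPKM, both highest in CM and neither called, although CXCL10 was called higher in CM versus IM with either other scaling.

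**Figure D3:**
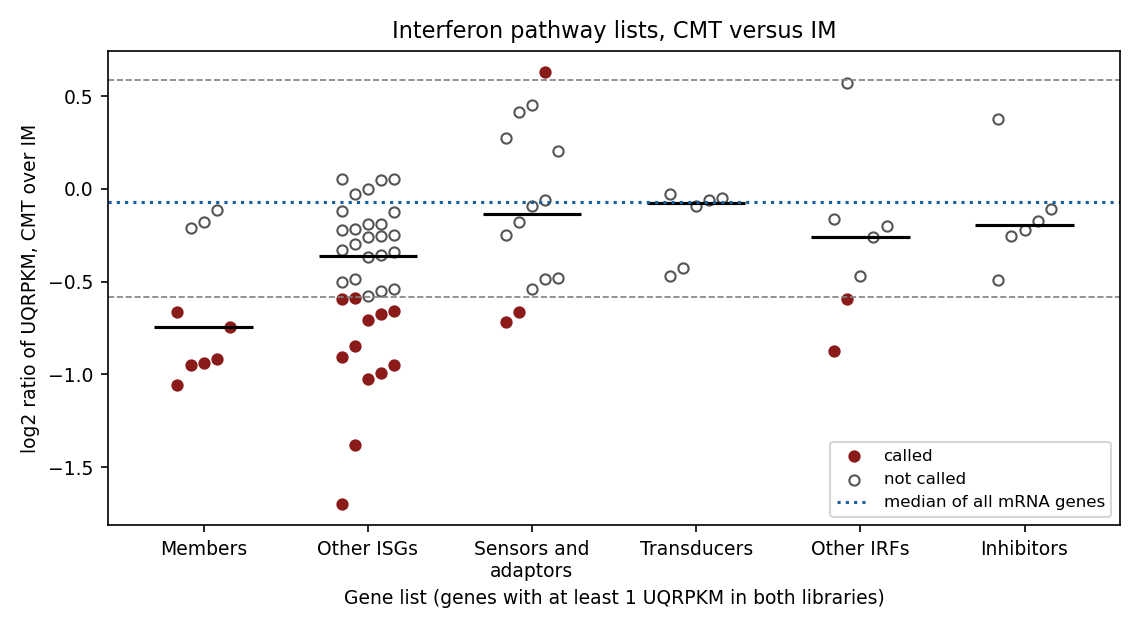
Log2 ratio of UQRPKM in CMT over IM, 1 library each, for the 9 interferon-stimulated genes (members) and for other lists of the interferon pathway, over genes not under 1 UQRPKM in either library. Red points were called at a fold of 1.5 (dashed lines), black bars are medians of the plotted genes, the dotted line is the median of all mRNA genes (-0.07), and IRF9 and ZBP1 are each drawn in 2 lists. Called members and called other interferon-stimulated genes (ISGs) lie only on the lower side. Transducers and inhibitors, with 6 genes each, hold no called gene, where 8.81% of all mRNA genes were called higher and 11.9% lower.

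Upstream of these genes, most interferon genes were listed at 0, from which nothing is read for the reason given for ISG15. IFNB1, IFNA1 and IFNK were listed at 0 in every library. IFNE had 0, 0 and 1 reads and IFNG 5, 0 and 1 reads in IM, CM and CMT. The type I receptor gene IFNAR2 was listed at 0, along with the interferon-lambda receptor genes IFNLR1 and IL10RB, with the same limit, and IFNAR1 was not matched by name. IFNGR1, a chain of the receptor for interferon gamma, was at 719, 634 and 625 UQRPKM.

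Of the 6 transducers above 0, 0 were called in any comparison. Of all mRNA genes, from 8.38% to 9.53% were called higher and from 9.97% to 11.9% lower. With 6 genes, 0 calls do not set the transducers apart from these shares. The kinase gene JAK1 was at 632, 632 and 611 UQRPKM, and JAK2 at 23.6, 22.7 and 22.6 UQRPKM. TYK2 was at 375, 320 and 279 UQRPKM, with a log2 ratio of -0.43 in CMT versus IM. STAT2 was at 399, 412 and 374 UQRPKM, and STAT3 at 835, 718 and 820 UQRPKM. The gene for IRF9, the partner of STAT2 on DNA, was at 845, 676 and 609 UQRPKM, with a log2 ratio of -0.47 in CMT versus IM. The median log2 ratio of the 6 transducers above 0 was -0.08 in CMT versus IM, beside -0.07 over all mRNA genes. All 6 lay below 0, as did 62.6% of the mRNA genes with at least 100 reads in each library. JAK1, JAK2, STAT2 and STAT3 lay between -0.09 and -0.03, within the 0.11 that scaling by total reads adds.

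Among 14 sensors and adaptors above 0, the 3 cytoplasmic RNA sensors had their lowest values in CMT. DDX58, which encodes RIG-I, was at 78.9, 85.6 and 56.6 UQRPKM and was called lower in CMT versus CM. IFIH1, which encodes MDA5, was at 79.5, 65.5 and 50.2 UQRPKM and was called lower in CMT versus IM. DHX58, which encodes LGP2, was at 147, 139 and 89.6 UQRPKM and was called lower in both. With either other scaling DDX58 and IFIH1 were no longer called, and DHX58 lost its call in CMT versus CM with scaling by total reads. MAVS, the mitochondrial adaptor through which RIG-I and MDA5 signal, was at 217, 200 and 183 UQRPKM and was not called. Endosomal sensors had their highest values in CMT. TLR8 was at 6.32, 7.39 and 9.76 UQRPKM and was called higher in CMT versus IM with an interval that included 0 (-0.01 to 1.29), and TLR7 was at 13.4, 17.7 and 18.3 UQRPKM without a call. The kinase gene IKBKE was at 5.68, 2.19 and 4.06 UQRPKM with 30, 11 and 21 reads, and was called lower in CM versus IM. Its call as higher in CMT versus CM had an interval that included 0 (-0.22 to 2.09).

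Other interferon regulatory factors were mixed. IRF1, an activator that interferon gamma induces, was at 349, 327 and 232 UQRPKM and was called lower in CMT versus IM, a call lost with either other scaling. IRF8, a factor of myeloid and dendritic cells, was at 96.9, 84.2 and 144 UQRPKM and was called higher in CMT versus CM, and with either other scaling also in CMT versus IM. IRF3, which sensors activate without new synthesis, was at 268, 229 and 233 UQRPKM and was not called. Of the 6 inhibitors of interferon signalling above 0, 0 were called in any comparison, and SOCS3 was listed at 0. Of all mRNA genes, from 8.38% to 9.53% were called higher and from 9.97% to 11.9% lower. With 6 genes, 0 calls do not set the inhibitors apart from these shares.

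Markers of cells that could carry interferon-stimulated genes did not all move with them. The 8 macrophage markers above 0 summed to 1734, 1928 and 1588 UQRPKM in IM, CM and CMT, with CD163 listed at 0. In CM versus IM 2 of the 8 (25%) were called higher and 0 lower, beside 8.38% and 10.4% of all mRNA genes. In CMT versus CM 3 of the 8 (37.5%) were called lower and 0 higher, beside 9.97% and 9.53% of all mRNA genes. In CMT versus IM 0 were called. CD68 (LOC100520753) was at 17.2, 42.9 and 22.2 UQRPKM and EMR1 at 45.6, 93.6 and 30.6 UQRPKM. Both were called higher in CM versus IM and lower in CMT versus CM. ITGAM was at 108, 138 and 73.5 UQRPKM and was called lower in CMT versus CM. CSF1R was at 285, 246 and 221 UQRPKM and was not called in any comparison. The 6 markers of plasmacytoid dendritic cells, the main makers of type I interferon, summed to 673, 570 and 674 UQRPKM, a list that shares TLR7, TLR9 and IRF8 with the lists above. Most of that sum was TCF4, at 416, 319 and 346 UQRPKM. SPIB was at 4.13, 7.22 and 13.8 UQRPKM with 15, 25 and 49 reads, and was called higher in CMT than in either other library. The median log2 ratio of the 6 was 0.33 in CMT versus IM, with 2 of them below 0. The 9 T and NK lymphocyte markers summed to 726, 636 and 652 UQRPKM. The 5 B lymphocyte markers summed to 52.2, 40.6 and 38.6 UQRPKM.

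Of the resident cells, the 4 adipocyte markers found summed to 108487, 103302 and 89225 UQRPKM, and their median log2 ratio was -0.41 for CMT over CM and -0.24 for CMT over IM. Of these 4, 1 (leptin, LEP) was called lower in CMT versus CM, where 9.97% of all mRNA genes were. In CMT versus IM 0 of the 4 were called, where 8.81% of all mRNA genes were called higher and 11.9% lower. The 4 endothelial markers summed to 6838, 6022 and 6692 UQRPKM and the 5 fibroblast and stroma markers to 59959, 60305 and 58183 UQRPKM. The stroma sum was mostly COL3A1 and hid unlike genes. COL1A1 was at 4453, 2235 and 2580 UQRPKM and was called lower in both castrated groups versus IM. PDGFRA was at 288, 306 and 434 UQRPKM and was called higher in CMT versus IM. COL3A1, DCN and PDGFRB were not called in any comparison. The 4 mesothelial markers above 0 summed to 73.5, 138 and 367 UQRPKM. All 4 were called higher in CMT versus IM, where 8.81% of all mRNA genes were. Skeletal muscle markers took 0.0991% of mRNA reads in CMT against 0.00128% in IM, and liver markers took 0.126% in CM against 0.000276% in IM. The share of the 9 interferon-stimulated genes was 0.0881%, 0.0659% and 0.0567% of mRNA reads in IM, CM and CMT. S100A8, S100A9 and S100A12 were also called higher in CMT versus IM, by 2.14-fold, 2.68-fold and 1.67-fold. The part of muscle, mesothelial, adipocyte or S100 RNA in the lower values of CMT was not tested.

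**Figure D4:**
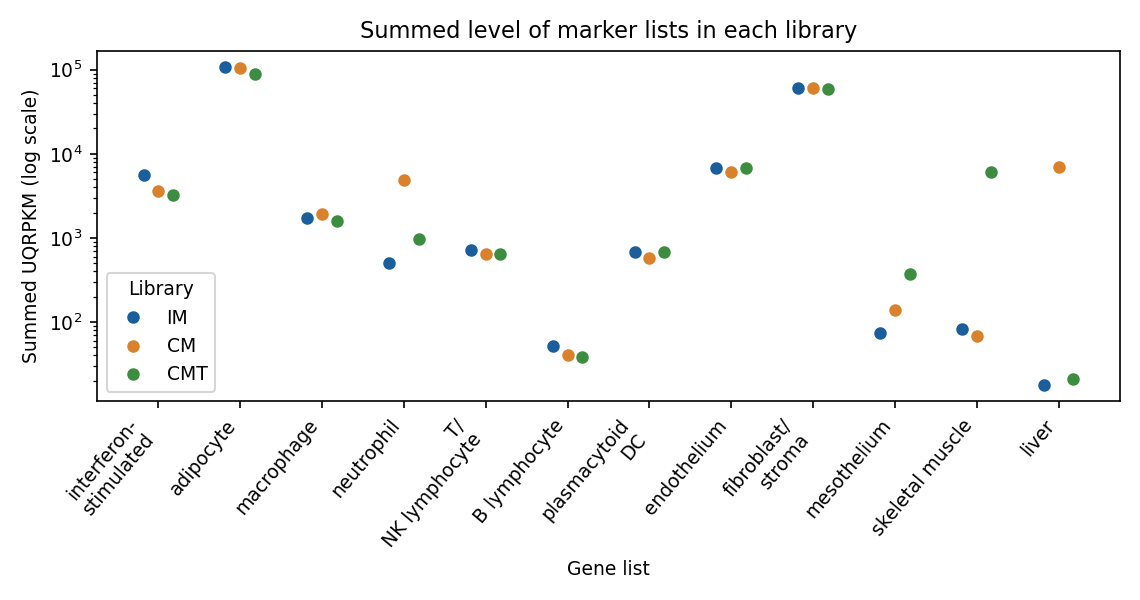
Summed UQRPKM (log scale) of the 9 interferon-stimulated genes above 0 and of each marker list in the 1 pooled library of each group (IM blue, CM orange, CMT green). Liver markers stand apart in CM (7009 against 17.6 in IM) and skeletal muscle markers in CMT (6130 against 82.3 in IM). The macrophage sum lies between 1588 and 1928 in all libraries and hides single markers that were called between libraries.

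Genes outside all lists were ranked by how near their pair of log2 ratios (CM versus IM, CMT versus CM) lay to the pair of medians of the 9 genes, -0.30 and -0.37. Among 8449 mRNA genes with at least 100 reads in each library, 82 (0.971%) lay within 0.1. The 5 nearest were LOC100520452, SLA-1, STK35, TUBB4B and LOC100738859. SLA-1, a heavy chain of swine MHC class I, was at 13658, 11205 and 8676 UQRPKM in IM, CM and CMT. TUBB4B, a beta-tubulin gene, was at 443, 363 and 284 UQRPKM, and STK35, a kinase gene, at 57.1, 46.4 and 36.3 UQRPKM. Likeness was measured over 3 libraries only, and nothing is read from it.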

How the data were processed

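RNA-Seq values of 3 pooled libraries (IM, CM and CMT, 1 each) were used, grouped by their sample labels. The authors filtered single-end Ion Proton reads, mapped them to Sscrofa 10.2 with MapSplice and deposited RPKM values scaled by the upper quartile (UQRPKM) for 34570 genes. The counting tool and annotation are not given in the sources used here.

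Whole reads were recovered from the deposited RPKM values for 100% of the 20838 genes above 0 (upper quartiles of 149, 142 and 146, relative tolerance 1e-08). The shortest gene length that gave whole reads was taken, so reads may be too low by a common factor. Recovery and calls were tested on simulated data.

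Log2 ratios carried no pseudocount. Genes were called at a 1.5-fold difference with at least 1 UQRPKM in both libraries. Exact Clopper-Pearson intervals (95%) used the recovered reads, and related genes were compared by exact conditional odds ratios. The alternatives were other thresholds and scalings, a pseudocount and an exact binomial test with Benjamini-Hochberg adjustment, which compares libraries and not conditions. Symbols were matched to RefSeq Sscrofa11.1 for names and gene order only, so no positions or sequences are given. Named were all members, all interferons, receptors and transducers, every listed gene called with at least 10 reads, the 5 genes nearest in pattern, and marker examples. The uncalled CXCL10, BST2, HERC5, USP18, MAVS, TLR7 and IRF3 were added after their values were seen. Some listed genes are not reported here. Members and lists were chosen with earlier results of these data known. Python 3.11.15, NumPy 2.4.6, SciPy 1.17.1, pandas 2.3.3 and matplotlib 3.10.9 were used.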

Additional observations from a re-analysis of the deposited data

How the results depend on the processing

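With 1 library per group, no replicate could be left out and no paired analysis was possible because each group is a single library. At a 2-fold threshold the members called lower were 0 for CM over IM, 0 for CMT over CM and 1 (RSAD2) for CMT over IM, in place of 1, 2 and 6. Counts of called members were within 1.5 times the reported ones without a minimum level, with at least 10 UQRPKM, with a pseudocount of 1 UQRPKM, with both other scalings and with the exact binomial test also required. In CMT versus IM, 5 in place of 6 members were called lower with either other scaling. The median log2 ratio of the members ranged from -0.30 to -0.24 for CM over IM, from -0.37 to -0.31 for CMT over CM and from -0.74 to -0.63 for CMT over IM. Members below 0 were 7 in place of 8 in CM versus IM with either other scaling, an alternative added after the data were seen. Among the members depth limits IRF7 most, and among the listed genes depth limits those under 100 reads, such as OASL, TLR8 and IKBKE. Differences between pigs within a pool are beyond any of these settings.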
